A study of Homo sapiens with 4 samples.

Results

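Occupancy of FOXA2 was examined at the loci of 9 genes that FOXA2 is known to regulate in liver: ALB, AFP, TTR, APOA1, APOB, SERPINA1, IGFBP1, PCK1 and CPS1. The cells were PC3, an androgen-independent prostate cancer line, so the question is whether a factor with well-known liver targets is found at those targets in a prostate cell. Each gene was given a fixed hg19 window of the gene and about 50 kb on each side. ALB and AFP are neighbours and share a window, which makes 8 windows of 1.2 Mb in all. The genes were chosen by name and the windows by position, and a peak belongs to a window when its summit lies inside it. The choice was made with earlier results of these data known. By this rule 8 of 21308 FOXA2 peaks in vehicle cells and 3 of 14846 in cells given GSK2879552 were members.

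The study compared FOXA2 chromatin immunoprecipitation and sequencing (ChIP-seq) in PC3 cells given vehicle with that in PC3 cells given 50 µM GSK2879552, which inhibits LSD1 (KDM1A), a histone demethylase, for 4 hours. Both groups carried no other stated alteration and were grown in RPMI1640 with 5% charcoal-stripped serum; the length of the vehicle treatment is not given separately. Each group comprised 2 sequencing lanes, labelled technical replicates, and 1 peak list covering both lanes, so the lists have no replicate spread and no test between groups was made. Sample descriptions name the assay ATAC-seq, while titles and series design name FOXA2 ChIP-seq, which was followed. Peak lists hold no expression values, so the identity of the cells could not be set against marker genes.

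FOXA2 is a forkhead transcription factor of the endoderm that can bind its sites in compacted chromatin. FOXA proteins were first recognised as liver factors bound to the promoters of TTR and SERPINA1, and in the embryonic gut a FOXA-bound enhancer of ALB is occupied before the gene is active. The insulin-repressed promoters of IGFBP1 and PCK1 also carry forkhead sites, which FOXA and FOXO factors can share.

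Forkhead cores in promoters of ALB, AFP and SERPINA1 are printed here. Neither list placed a summit in the windows of these genes less 50 kb on each side, the part that approximates the genes. The sequences are the 250 bases before the transcription start, taken from RefSeq on the GRCh38.p14 build and not from the hg19 build of the peaks. They run 5′ to 3′ on the strand of the gene, with the core in capitals. The cores searched on both strands, with no 2 matches overlapping in the promoters printed, were TGTTTAC, its variant TGTTTGC, the form TATTTAC and the form TATTTGC. The promoter of ALB, at chr4:73404037-73404286 on the plus strand, holds TATTTAC on the opposite strand at positions -159 to -153. The promoter of AFP, at chr4:73435971-73436220 on the plus strand, holds TATTTGC at -224 to -218. A SERPINA1 promoter, at chr14:94388603-94388852 on the minus strand, holds TGTTTGC at -108 to -102. A CPS1 promoter, at chr2:210519468-210519717 on the plus strand, holds TATTTGC at -176 to -170 and is not printed.
ALB: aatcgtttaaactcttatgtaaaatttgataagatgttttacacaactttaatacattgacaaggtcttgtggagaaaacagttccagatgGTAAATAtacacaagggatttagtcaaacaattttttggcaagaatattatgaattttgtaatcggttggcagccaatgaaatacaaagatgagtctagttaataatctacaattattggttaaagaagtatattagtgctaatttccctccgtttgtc
AFP: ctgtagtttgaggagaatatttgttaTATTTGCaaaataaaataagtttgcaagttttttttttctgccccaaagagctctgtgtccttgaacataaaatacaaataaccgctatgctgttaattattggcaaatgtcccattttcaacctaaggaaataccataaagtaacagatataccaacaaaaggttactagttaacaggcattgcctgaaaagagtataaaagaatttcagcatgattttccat
SERPINA1: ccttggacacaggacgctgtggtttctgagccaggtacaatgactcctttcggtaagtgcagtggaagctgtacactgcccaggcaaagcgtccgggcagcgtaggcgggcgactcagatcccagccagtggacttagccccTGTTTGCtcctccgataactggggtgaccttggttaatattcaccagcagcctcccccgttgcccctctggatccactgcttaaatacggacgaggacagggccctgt
Of the 9 genes, 4 matched the promoter table by symbol (ALB, AFP, SERPINA1 and CPS1, with 7 promoters in all), and 4 of the 7 promoters held a core. Over all 35116 promoters of the table, 10.6% did. The 7 promoters belong to only 4 genes and were not matched to the others in base composition. Enrichment of the cores was not tested. A match of letters is a description of the sequence and not a measured binding site. TTR, APOA1, APOB, IGFBP1 and PCK1 had no entry.

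In vehicle, 4 of the 8 windows held a FOXA2 peak (ALB/AFP, APOA1, IGFBP1 and CPS1) and 4 did not (TTR, APOB, SERPINA1 and PCK1). After GSK2879552, 2 windows held a peak, ALB/AFP and APOA1, and 6 did not. As background, the genome was divided into 22432 bins of 120 kb, the commonest window length. Of these, 49.3% held at least 1 vehicle peak and 39.8% at least 1 GSK2879552 peak. With bins of each window's own length the mean shares were 54.0% and 44.5%. The 4 vehicle windows are therefore near the share that any stretch of this size has. The lower number of occupied windows in GSK2879552 did not hold at a wider setting, chosen after seeing the data. With windows 50 kb wider on each side, 6 held a vehicle peak and 7 a GSK2879552 peak. The share over bins of the widened lengths was not computed, so these 2 counts have no background. Longer stretches hold a peak more often: of bins of 310 kb, 76.4% held a vehicle peak and 67.5% a GSK2879552 peak.

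The density of peaks gave the same picture. The windows held 6.67 vehicle peaks per Mb (exact Poisson 95% interval 2.88 to 13.14), beside 7.79 per Mb over the 2703 bins of 1 Mb that held any peak. For GSK2879552 the values were 2.50 per Mb (0.52 to 7.31) in the windows and 5.42 over the genome. Both genome values lie inside the intervals of the windows. These intervals, like all others given here, cover counting error only.

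**Figure D1:**
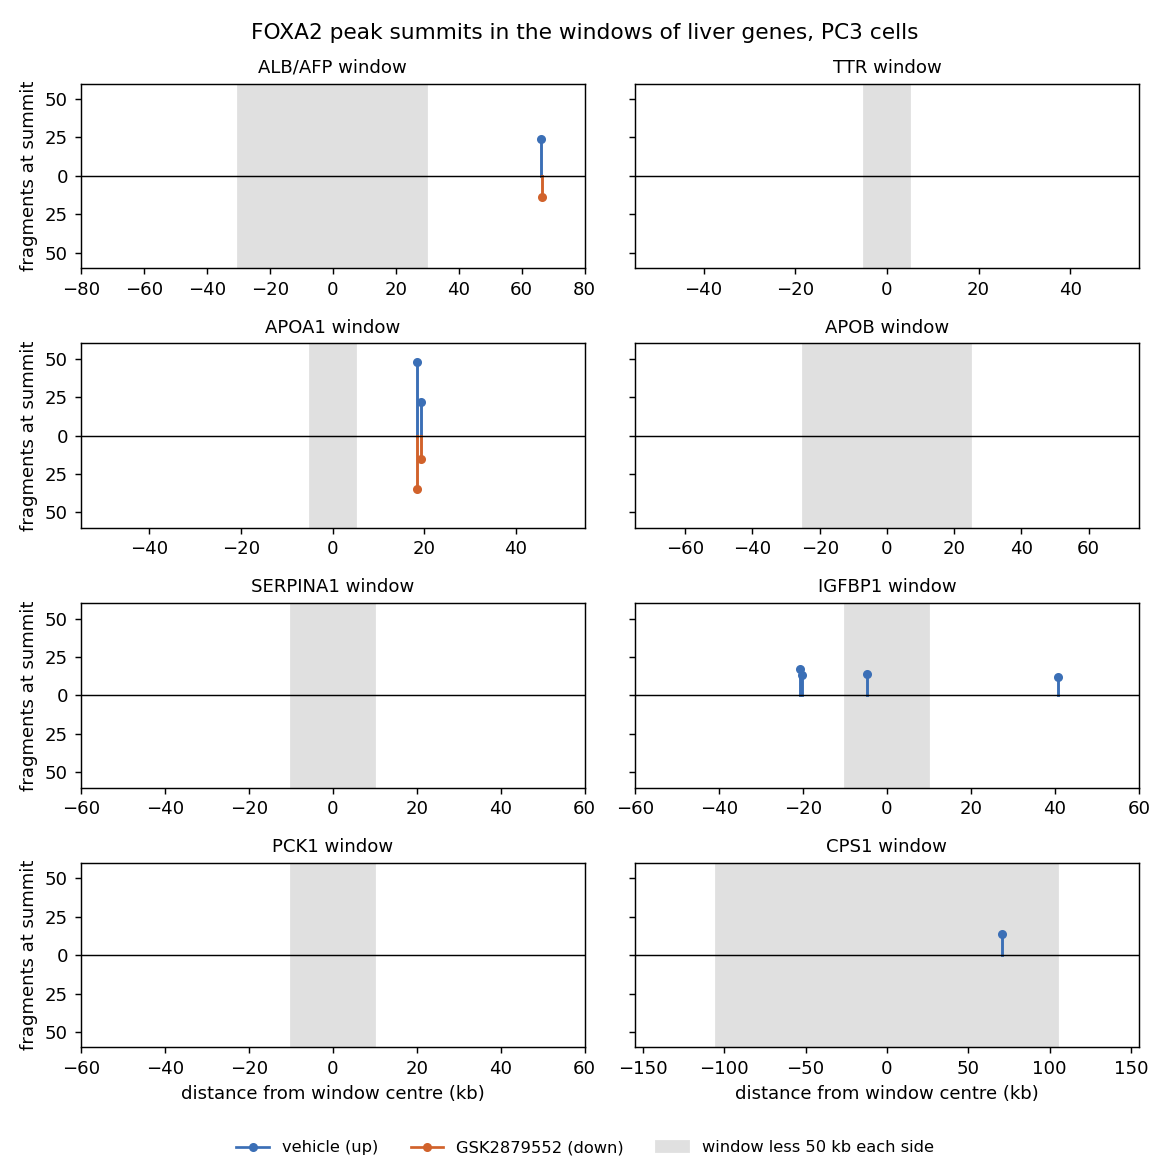
FOXA2 peak summits in the 8 windows: the x axis is the distance from the window centre in kb, the height is the number of fragments at the summit, with vehicle drawn upward and GSK2879552 downward, and grey marks the window less 50 kb on each side, which approximates the gene. Of the 8 vehicle summits, 2 lie in grey parts, those at IGFBP1 and CPS1, and the TTR, APOB, SERPINA1 and PCK1 windows are empty in both lists.

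The strength of a peak is given as the number of sequenced fragments covering its summit, recovered from the authors' fold enrichment and p-value. The local background is the number the peak caller expected there. The fold, a ratio of fragments to local background, and the −log10 p and q are the authors' values, and they rank peaks only inside their own list. Window peaks in vehicle had from 12 to 48 fragments with a median of 15.5. All vehicle peaks had a median of 18 (quartiles 14 and 28), so the median of the members lies between these quartiles.

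The strongest member lay in the window of APOA1 (chr11:116650000-116760000), which codes for the main protein of high-density lipoprotein. At chr11:116723265-116723557, 48 fragments (exact Poisson 95% interval 35.4 to 63.6) covered the summit in vehicle over a local background of 2.85. In GSK2879552, 35 fragments (24.4 to 48.7) covered the summit of the overlapping peak at chr11:116723298-116723591, over a background of 2.30. The authors gave it a fold of 12.7 with vehicle and of 10.9 with GSK2879552. In its own list the site stood above 93.3% of vehicle peaks and above 90.3% of GSK2879552 peaks. It ranked high in both lists, and the 2 intervals of its fragment numbers overlap.

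A second, weaker APOA1 member lay beside it, at chr11:116724174-116724546 in vehicle and chr11:116724240-116724431 in GSK2879552. The vehicle peak had 22 fragments (13.8 to 33.3), and the GSK2879552 peak had 15 (8.40 to 24.7). The summits of the pair were 906 bp apart in vehicle and 895 bp apart in GSK2879552. Of all vehicle peaks, 5.52% had another summit within 1 kb. The weaker peak was 373 bp wide in vehicle and 192 bp wide in GSK2879552, whereas the stronger one was 293 and 294 bp wide.

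Neither APOA1 site lay at the gene itself. Trimmed by 50 kb on each side, the window leaves 116.70 to 116.71 Mb for the gene, and the vehicle summits lay 13.4 and 14.3 kb above that stretch. In the gene order of RefSeq the next coding gene on that side is SIK3, a kinase gene. The apolipoprotein genes APOC3, APOA4 and APOA5 follow on the other side, where the next vehicle summit was 2215.9 kb below the window. The stretch of 2289.4 kb with no vehicle summit that ended at the stronger APOA1 site was among the longest: 61 of 21042 distances between neighbouring vehicle summits were at least as long, and such stretches made up 7.9% of the span of the chromosomes. On the other side the next vehicle summit was 81.9 kb above the window. The window and 1 Mb on each side held 5 vehicle peaks, each of them in the window or within 200 kb of it, so the APOA1 pair was isolated on its lower side.

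The window of ALB and AFP (chr4:74220000-74380000) held 1 peak in each list. ALB codes for serum albumin and AFP for its fetal counterpart. The vehicle peak at chr4:74366149-74366432 had 24 fragments (15.4 to 35.7) at its summit and a fold of 9.39, above 72.0% of its list. The GSK2879552 peak at chr4:74366148-74366432 had 14 fragments (7.65 to 23.5) and a fold of 5.27, above 21.4% of its list. The interval of the peak was nearly the same in both lists; its ranks, from lists of different lengths, are not compared.

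This site lay 36.3 kb above the trimmed window of 74.27 to 74.33 Mb, on the side where AFM and then RASSF6 follow AFP in the RefSeq order. AFM codes for afamin, a further member of the albumin family. Below the ALB/AFP window the nearest vehicle summit was 98.1 kb away. No peak of either list was called between that summit and the AFM side, a stretch of 244.4 kb in both lists that holds ALB and AFP. The wider region was rich in peaks on the whole, with 42 vehicle peaks and 26 GSK2879552 peaks within the window and 1 Mb on each side. That is 19.44 and 12.04 peaks per Mb, the highest of the 8 regions in both lists.

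IGFBP1 codes for a secreted binding protein of insulin-like growth factors, made by the liver in fasting. Its window (chr7:45870000-45990000) held 4 vehicle peaks, the most of the 8, and no GSK2879552 peak. The peak nearest the gene, at chr7:45925045-45925303, had 14 vehicle fragments (7.65 to 23.5) and a fold of 6.44. Its summit lay inside the trimmed window of 45.92 to 45.94 Mb, and at this precision it cannot be said whether it lies in the gene or just beside it. A pair of peaks with summits 678 bp apart lay lower on the chromosome, the nearer summit 15270 bp from that of the first peak: chr7:45909086-45909305 with 17 fragments (9.90 to 27.2) and chr7:45909791-45909965 with 13 (6.92 to 22.2). The second of these had the shortest interval of the list, 175 bp, as did 7.92% of vehicle peaks.

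The fourth IGFBP1 member lay on the side of IGFBP3, which codes for the main carrier of insulin-like growth factors in serum. At chr7:45970605-45970808 it had 12 fragments (6.20 to 21.0) and stood above 20.1% of vehicle peaks. All 4 IGFBP1 peaks were in the lower part of the vehicle list, above 10.7% to 40.7% of it. The nearest GSK2879552 summits were 43018 bp to 104504 bp away from them.

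Having 4 vehicle peaks in 120 kb was uncommon, as 4.96% of the 22432 bins had 4 or more. Of the 1112 bins with 4 or more vehicle peaks, 0.719% (8 bins) held no GSK2879552 peak. Of the 608 bins with exactly 4, the same 8 bins made up 1.32%. This background was chosen after the IGFBP1 values were seen, and for the window with the most vehicle peaks. Its bins were not matched to the low fragment numbers of the IGFBP1 peaks. The shares therefore do not tell how often 4 peaks this weak all lack a GSK2879552 counterpart. Among all vehicle peaks with 12 to 17 fragments, the range of these peaks, only 39.8% overlapped a GSK2879552 peak. Just above the window, a vehicle peak at chr7:46013611-46013785 with 13 fragments did overlap a GSK2879552 peak, which had 14.

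CPS1, the gene of the enzyme that starts the urea cycle, had 1 vehicle peak in its window (chr2:211290000-211600000). At chr2:211515524-211515758 the summit had 14 fragments (7.65 to 23.5) over a background of 1.37, with a fold of 6.34. It lay inside the trimmed window of 211.34 to 211.55 Mb, the stretch that approximates the gene. No GSK2879552 peak was called in the window, and the closest summit of that list lay 106155 bp from the CPS1 peak. This window is the longest of the 8, and 76.4% of bins of its length of 310 kb held a vehicle peak.

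The remaining windows held no peak in either list. TTR, the gene of the thyroid hormone and retinol transport protein transthyretin, lies in a region with more peaks than the genome as a whole: 23 vehicle and 20 GSK2879552 peaks fell in its window (chr18:29120000-29230000) and 1 Mb on each side, 10.90 and 9.48 per Mb. The nearest vehicle summit was 29.5 kb above the window, at chr18:29259414-29259692, where the vehicle peak had 19 fragments and the GSK2879552 peak overlapping it had 10. On the lower side, towards the desmoglein genes DSG2, DSG3 and DSG4, the nearest was 137.9 kb away. The TTR window was thus empty in both lists, with peaks of both lists on either side.

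APOB, the gene of the structural protein of low-density lipoprotein, lies in the poorest region of the 8 in vehicle. Its window (chr2:21170000-21320000) fell in a stretch of 1085.1 kb with no vehicle summit, and 18.8% of the span lay in stretches at least as long. Within 1 Mb on each side there were 4 vehicle and 6 GSK2879552 peaks. One of the latter, at chr2:21352171-21352338, lay 32.3 kb above the window with 10 fragments and a fold of 5.28, above 9.1% of its list. The nearest vehicle summit to it was 371.3 kb away.

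SERPINA1 codes for alpha-1 antitrypsin, and its window (chr14:94790000-94910000) lies in a cluster of related inhibitor genes that includes SERPINA6 and SERPINA10 below and SERPINA11 above. The nearest vehicle peak was 44.2 kb below the window, at chr14:94745662-94745872, with 11 fragments in vehicle and 14 in GSK2879552. Above the window no vehicle summit was found for 668.3 kb. The window and 1 Mb on each side held 7 peaks in each list, 3.30 per Mb.

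PCK1 codes for the cytosolic enzyme that commits carbon to glucose synthesis. Its window (chr20:56080000-56200000) had its nearest vehicle summits 55.0 kb below and 73.6 kb above. In the GSK2879552 list the nearest summit below was 700.5 kb away and the one above 73.6 kb away. Around PCK1 the stretch without a summit spanned 248.6 kb with vehicle and 894.1 kb with GSK2879552, and 61.0% and 30.9% of the span of the respective list lay in stretches at least as long. A window with no called peak is not shown to be unbound, since a list holds only sites that passed the threshold of the peak caller.

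**Figure D2:**
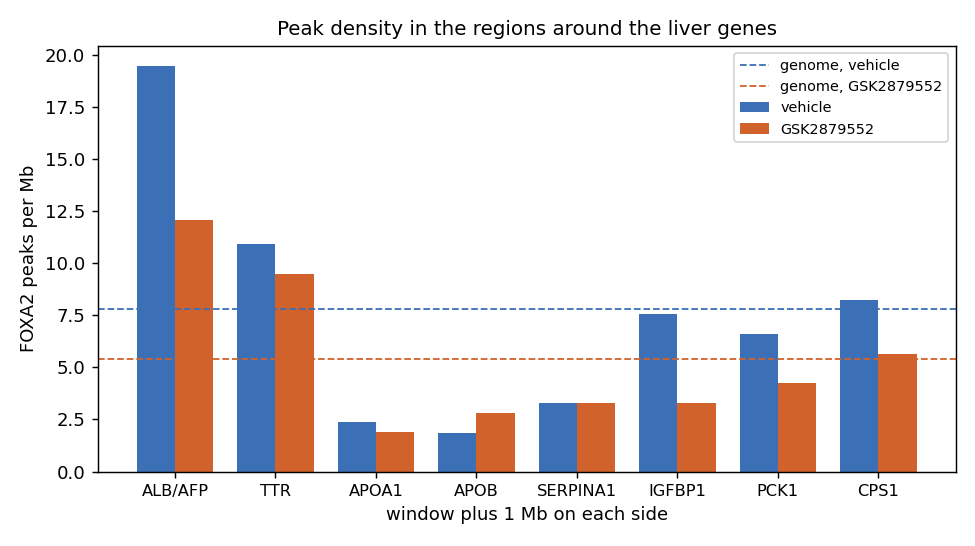
FOXA2 peaks per Mb in each window plus 1 Mb on each side (bars, vehicle and GSK2879552), with the genome values of 7.79 and 5.42 per Mb as dashed lines. Regions of ALB/AFP and TTR stand above both lines, and those of APOA1, APOB and SERPINA1 stand below both. With each bar set against the line of its own list, CPS1 stands above in both lists. IGFBP1 and PCK1 stand below in both.

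To ask how the liver loci fared under LSD1 inhibition, the members were followed from one list to the other. Of the 8 vehicle members, 3 overlapped a GSK2879552 peak by at least 1 bp, which is 37.5% (exact binomial 95% interval 8.5 to 75.5). They were both APOA1 peaks and the ALB/AFP peak. The other 5, all at IGFBP1 and CPS1, did not. Over the whole vehicle list 62.0% of peaks overlapped a GSK2879552 peak, a value inside the interval of the members. Each of the 3 GSK2879552 members overlapped a vehicle peak, as did 89.2% of the GSK2879552 list.

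Members with and without a GSK2879552 counterpart differed in strength. The 3 with one had 22 to 48 vehicle fragments, and the 5 without one had 12 to 17, so the groups did not overlap. Among all 7618 vehicle peaks with 12 to 17 fragments, 39.8% overlapped a GSK2879552 peak. The share rose with strength: it was 25.5% for peaks with 12 fragments, as at the IGFBP3 side, 36.9% for those with 14, as at CPS1 and the central IGFBP1 peak, and 50.9% for those with 17. It was 76.0% for peaks with 22 fragments, as at the weaker APOA1 site, 82.4% for those with 24, as at ALB/AFP, and 98.96% for those with 48. Where the background was within 0.01 of its floor, peaks with as few as 7 fragments were called in vehicle and 8 in GSK2879552. Elsewhere the GSK2879552 list held 2 peaks with 7 fragments. The 5 members without a counterpart had vehicle backgrounds of 1.21 to 1.84, above the floor of 1.079. Their background in GSK2879552 is not given by the lists, so these numbers need not apply to them.

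**Figure D3:**
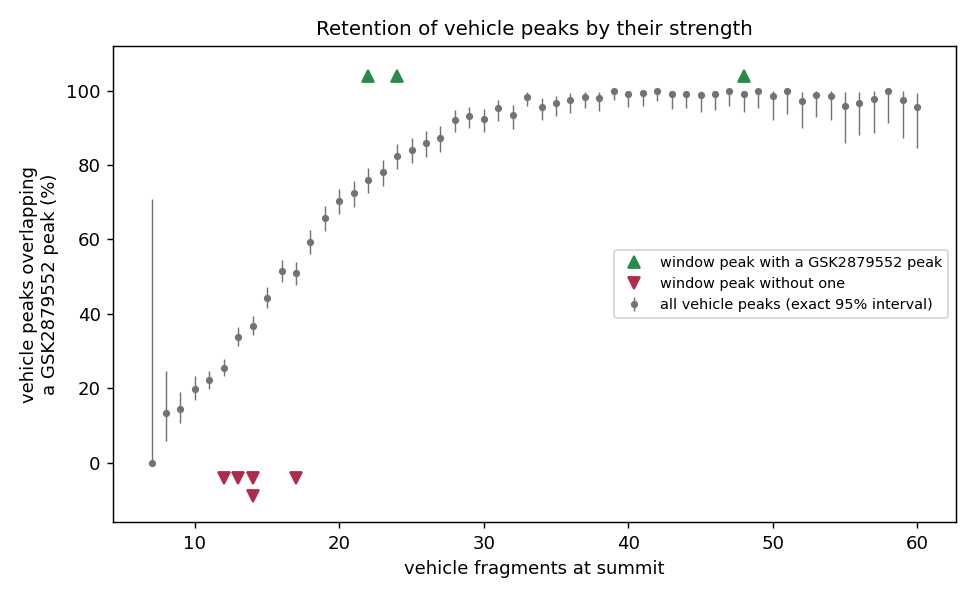
Percent of vehicle peaks that overlap a GSK2879552 peak (y axis) by the number of vehicle fragments at the summit (x axis); grey points are all vehicle peaks with exact 95% intervals, and triangles place the 8 members at the top edge when they have a GSK2879552 peak and at the bottom edge when they do not. The 5 members without one have 12 to 17 fragments and the 3 with one have 22 to 48.

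At the 3 shared sites the fragment number was lower in GSK2879552 each time. A ratio exists only where a peak was called in both lists, so members without a GSK2879552 counterpart have none. Ratios were scaled by the background floors of the libraries, 1.079 and 1.082 fragments. The log2 ratio of GSK2879552 to vehicle was -0.46 (95% interval -1.13 to 0.20) at the stronger APOA1 site and -0.56 (-1.61 to 0.46) at the weaker one. At the ALB/AFP site it was -0.78 (-1.84 to 0.23). Each of these intervals includes 0, so at no single site was the difference larger than counting error.

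Over all 13200 pairs of shared peaks the median log2 ratio was -0.32 (quartiles -0.57 and -0.08), and 78.0% had fewer fragments in GSK2879552. The value of -0.32 lies inside the interval of each of the 3 liver sites. Of all pairs, 10.5% had a lower ratio than the ALB/AFP site, 26.0% a lower one than the weaker APOA1 site and 35.4% a lower one than the stronger APOA1 site. The summits moved by 10 to 21 bp between the lists.

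**Figure D4:**
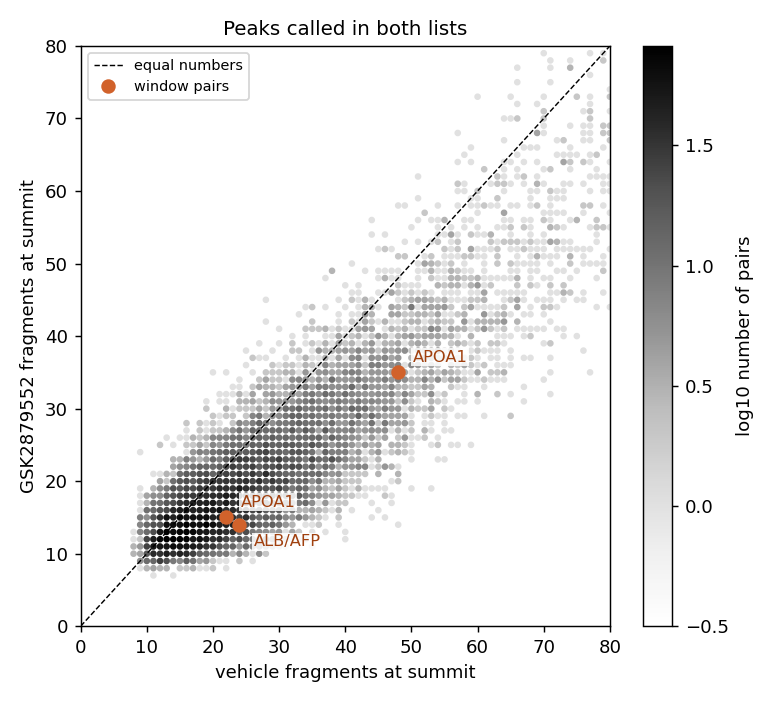
Fragments at the summits of peaks called in both lists, vehicle on the x axis and GSK2879552 on the y axis, both shown up to 80; grey shading is the log10 number of pairs, the dashed line marks equal numbers and coloured points are the 3 member pairs. The 3 members, with 48 and 35, 22 and 15, and 24 and 14 fragments, lie below the line within the cloud of all pairs.

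Sites just outside the windows, within a further 50 kb, added 7 peaks in each list. Of the 7 vehicle peaks, 6 overlapped a GSK2879552 peak, where 62.0% of all vehicle peaks and 58.6% of those with 11 to 37 fragments, the range of these 7, did. The largest drop among them was next to AFM and RASSF6, at chr4:74402341-74402652, with 37 vehicle and 18 GSK2879552 fragments (log2 ratio -1.04, 95% interval -1.94 to -0.19). It was picked as the most extreme of the 6 flanking pairs. The median of -0.32 over all pairs of shared peaks lies inside its interval. The peak between it and the ALB/AFP window, at chr4:74388940-74389152, had 18 and 15. Above the CPS1 window, chr2:211621615-211621859 had 21 vehicle and 19 GSK2879552 fragments. Of the 6 flanking pairs, 4 had fewer fragments in GSK2879552. Those beside SERPINA1 and IGFBP1 had more, by 3 and by 1, which is within counting error (log2 ratio 0.34, -0.90 to 1.63, and 0.10, -1.09 to 1.31).

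With both lists held to a −log10 q of at least 10, the vehicle members left were 2, the stronger APOA1 site and the ALB/AFP site, and the GSK2879552 member left was 1, the stronger APOA1 site. Of all vehicle peaks 51.2% passed this limit, and of all GSK2879552 peaks 44.0%. The weaker APOA1 site missed it narrowly in vehicle, with a −log10 q of 9.94. The 2 samples of a group are lanes labelled technical replicates, so the spread between cultures was not measured.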

How the data were processed

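FOXA2 ChIP-seq peak lists of PC3 cells, 1 for vehicle and 1 for GSK2879552, each covering 2 lanes, were analysed. MACS2 2.1.2, BWA 0.7.2 and SAMtools 0.1.18 are the tools, and hg19 (GRCh37) the build, per the submitters' processing notes; for options, threshold, duplicate handling or a control, nothing is given in the sources used here. In the lists, the deposited fold enrichment is a ratio with 1 added to fragments and to background, the deposited −log10 p and −log10 q come from the authors' peak caller, and the deposited score restates the −log10 q. The lowest −log10 q in the authors' deposited table was 1.39 for vehicle and 1.66 for GSK2879552.

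Fragments at each summit were solved from fold and p as a whole number under 1500, at a background above 0.3; 100% of peaks in both lists matched within 0.001 in −log10 p, and none had a further match. On simulated data 100% of 2919 vehicle and 100% of 2914 GSK2879552 summits were recovered. The background floor was the lowest local background of a list. Pairs are mutual best overlapping peaks. Bins covered chromosomes 1 to 22 and X where the 1 Mb bin around their centre held a peak. Intervals are exact, at 95%. Sequencing depth was not used here. Python 3.11.15, scipy 1.17.1 and pandas 2.3.3 were used.

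Every one of the 9 genes and each peak in its window is named. The members and lists were chosen with earlier results of these data known. RefSeq tables of GRCh38.p14 gave gene order and promoters only, so no distance to an hg19 gene was computed, and a longer list of liver genes and motifs under peaks were not analysed here. Alternatives comprised stricter thresholds, wider windows, other overlap rules and other scaling.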

Additional observations from a re-analysis of the deposited data

How the results depend on the processing

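With both lists held to a −log10 q of at least 10, the vehicle peaks in the windows numbered 2, in 2 windows, and the GSK2879552 peaks 1, in 1 window; a stricter threshold by construction leaves fewer. Windows 50 kb wider on each side held 15 vehicle and 10 GSK2879552 peaks, and windows 200 kb wider held 37 and 23. Fewer GSK2879552 peaks were thus found at each width run. The whole lists had the same order, with 21308 vehicle and 14846 GSK2879552 peaks, so this order is not particular to the windows. The number of occupied windows did not keep this order. With the windows 50 kb wider, 6 held a vehicle peak and 7 a GSK2879552 peak, and with those 200 kb wider, 7 and 8 did. Both settings were added for this count after seeing the data. No share over bins of the widened lengths was computed. Nearly all of the widened windows were occupied in both lists, so these counts say little about a difference between the lists. A −log10 q of at least 5, assignment by interval, other overlap rules, fragments without scaling or above the local background, and peaks per Mb over the span of each chromosome moved no value beyond 1.5 times or beyond its interval; the median log2 ratio of the 3 shared sites ran from -0.59 to -0.55. Lanes could not be left out in turn, as the lists merge them. No paired analysis was possible because the columns carry no lane number. The absence of a peak from a list does not show that a site was unbound.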
